A study of Mus musculus with 2 samples.

Results

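The genes described here are 39 genes of the transforming growth factor beta (TGF-beta) and bone morphogenetic protein (BMP) pathway in the mouse, and the values are the chromatin loops that end at them in the uterus. They are 3 TGF-beta ligands, 7 BMP and growth differentiation factor (GDF) ligands, 4 genes of the activin and Nodal branch and 9 receptors. The others are 5 extracellular antagonists, 7 Smads and 4 Id genes. The 39 are out of 21631 protein-coding genes on the chromosomes with loops. Lefty1, placed in the activin and Nodal branch, encodes a secreted inhibitor of Nodal and not an activating ligand. A loop was assigned to a gene when either end of the gene, as RefSeq places it on GRCm38, lay inside a loop anchor or within 5 kb of it. This gave 123 of the 24131 loops of estrus and 123 of the 26240 loops of diestrus. The loops came from Hi-C, in which DNA segments in contact within the nucleus are joined and sequenced as pairs, on whole uterus of intact, untreated CD-1 mice (an outbred stock) at 2 months. A library came from estrus (n = 1), the stage after the estrogen peak, and another from diestrus (n = 1), when progesterone acts on the uterus. Each library sums over the cell types of the organ, and the sources used here do not say whether animals were pooled. With 1 library per stage the differences between them have no replicate check, and no p-value is given. Intervals are at 95% and cover counting error or chance over loops, not the spread between animals.

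Ligands of this family bind pairs of type I and type II receptor kinases. The type I receptor then phosphorylates receptor Smads (Smad2 and Smad3 after TGF-beta, activin or Nodal, and Smad1 and Smad5 after BMP), which enter the nucleus with Smad4. Smad6 and Smad7 inhibit the pathway, and the Id genes, which encode inhibitors of basic helix-loop-helix transcription factors, are direct BMP targets. In the mouse uterus, the receptors Bmpr1a, Bmpr2 and Acvr1 and the activin-binding protein Fst are needed for implantation and decidualization. A loop is a pair of 10 kb bins that touch more often than their surroundings, and its strength is given here as the number of observed contacts over the number expected from the donut-shaped neighbourhood around it. Many loops join sites bound by the insulator protein CTCF, and others join promoters to distal elements.

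The stretches of 250 bases upstream of the start are shown for 5 members that the results below turn on. These are the BMP ligand gene Bmp4, the BMP targets Id2 and Id4, and the activin subunit genes Inhbb and Inhba. They are RefSeq sequences of GRCm38.p6, written 5′ to 3′ on the strand of the gene. Capitals mark matches to the motifs searched. Bmp4 is at chr14:46390670-46390919 (minus strand), and its capitals mark an E-box on the opposite strand. Id2 is at chr12:25096093-25096342 (minus strand), and its capitals mark the GC-rich element. Id4 is at chr13:48260866-48261115 (plus strand), with capitals for a CTCF core and then a GC-rich element. Inhbb at chr1:119422249-119422498 (minus strand) and Inhba at chr13:16011601-16011850 (plus strand) hold no match.
Bmp4: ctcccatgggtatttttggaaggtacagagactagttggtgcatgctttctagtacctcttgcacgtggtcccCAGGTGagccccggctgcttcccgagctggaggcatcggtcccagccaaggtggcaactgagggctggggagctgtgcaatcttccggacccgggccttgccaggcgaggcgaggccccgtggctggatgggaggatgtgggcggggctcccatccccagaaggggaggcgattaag
Id2: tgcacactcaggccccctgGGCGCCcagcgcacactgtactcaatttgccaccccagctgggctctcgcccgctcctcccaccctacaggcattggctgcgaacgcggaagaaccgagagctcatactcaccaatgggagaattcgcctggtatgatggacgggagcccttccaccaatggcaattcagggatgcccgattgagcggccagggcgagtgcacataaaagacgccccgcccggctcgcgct
Id4: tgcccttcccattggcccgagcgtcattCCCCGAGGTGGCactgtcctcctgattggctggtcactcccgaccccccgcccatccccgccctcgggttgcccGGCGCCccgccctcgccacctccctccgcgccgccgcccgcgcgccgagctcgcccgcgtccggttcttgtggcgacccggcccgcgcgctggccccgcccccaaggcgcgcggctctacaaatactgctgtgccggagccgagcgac
Inhbb: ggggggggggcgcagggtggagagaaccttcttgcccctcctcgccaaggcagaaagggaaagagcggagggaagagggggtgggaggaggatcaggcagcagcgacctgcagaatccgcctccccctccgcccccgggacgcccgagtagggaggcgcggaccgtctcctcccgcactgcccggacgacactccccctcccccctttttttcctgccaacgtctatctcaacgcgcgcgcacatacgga
Inhba: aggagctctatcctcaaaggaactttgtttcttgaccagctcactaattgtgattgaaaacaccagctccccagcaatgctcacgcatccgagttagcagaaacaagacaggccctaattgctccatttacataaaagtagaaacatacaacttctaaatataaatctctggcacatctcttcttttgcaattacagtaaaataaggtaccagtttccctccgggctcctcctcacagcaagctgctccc

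The promoter table matched 28 of the 39 members, with 33 promoters. Both strands were searched for 6 short motifs, and a match is only a match of letters. The CTCF core (CC, AG and GGC in that order, with 3 free bases after CC and 2 after AG) was present in 6 of the 33 promoters, at Bmpr1b, Gdf10, Id4, Smad5 and Tgfb1, and in 7.22% of all 32619 mouse promoters of this length. The GC-rich element GGCGCC, which BMP-activated Smads bind, was present in 8 of the 33, at Bmpr1a, Bmpr2, Chrd, Grem1, Id2, Id4, Smad5 and Tgfbr1, and in 9.65% of all. The E-box CACCTG was present in 3 of the 33, at Bmp4, Bmp6 and Bmpr1b, and in 17.3% of all. The estrogen response element (GGTCA and TGACC around 3 free bases), the progesterone response element and the Smad element GTCTAGAC were in none of the 33, and in 0.0644%, 0.389% and 0.169% of all promoters. GGCGCC is its own reverse complement, and the motifs were counted independently of each other.

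Loops ended at 35 of the 39 members in at least 1 stage, or 89.7%, against 55.7% of all protein-coding genes. Nodal, Lefty1, Grem1 and Smad2 had no loop in either list. Members averaged 3.15 loops per gene in both stages, against 1.14 in estrus and 1.20 in diestrus over all protein-coding genes. The members were chosen with earlier results of these data known, so this surplus cannot be told apart from the choice of genes. In the wider pathway list described below, chosen in the same way, 44 of 59 genes had a loop. Of the 35 members with a loop, 13 (37.1%) had more loops in estrus than in diestrus, which 25.6% of protein-coding genes with a loop did. Fewer loops in estrus were found at 11 (31.4%, against 31.5% of protein-coding genes), and equal numbers at 11 (31.4%, against 42.9%). The order of the first counts depended on the margin: 9 members had more loops in estrus and 11 fewer with no margin, and 9 more and 12 fewer with 10 kb. At Inhba, Acvr1, Chrd, Smad5 and Id1 the additional estrus loop had a diestrus counterpart that fell outside the 5 kb limit. A difference of 2 or more loops was present at 7 members. Inhbb, Tgfbr1 and Bmpr1b had at least 2 more in estrus (8.57% of the 35, against 4.29%), and Bmpr2, Acvr2a, Nog and Smad4 had at least 2 fewer (11.4%, against 7.11%). With no margin the differences of Bmpr2 and Smad4 were 1 loop. The shares of genes with more, fewer or equal loops were not matched for the number of loops per gene. A gene with more loops has more chances to differ in either direction, and members had more loops per gene, so these shares are not like for like. No loop ended at 2 members at once.

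**Figure D1:**
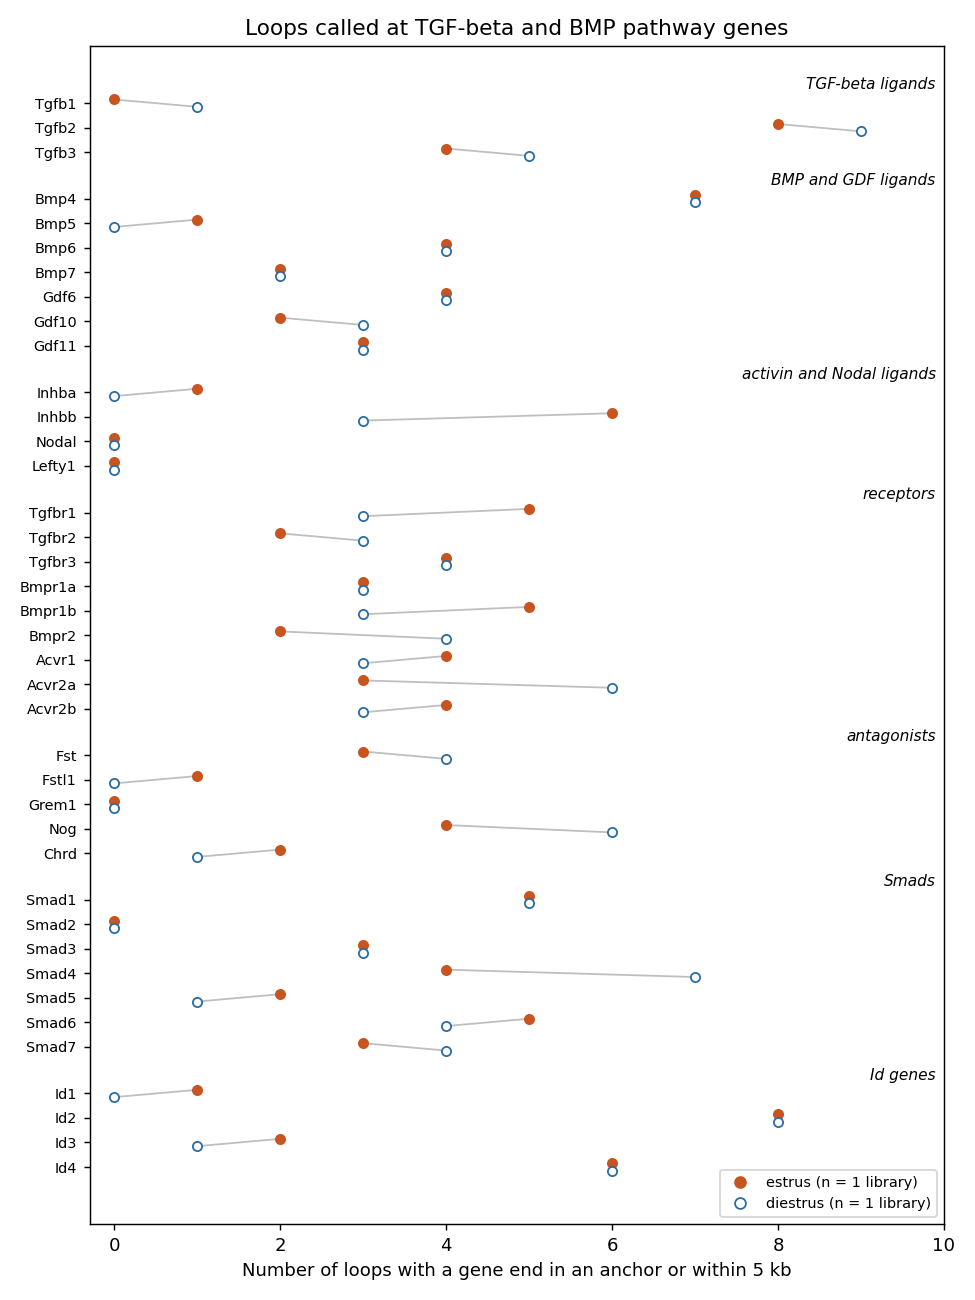
Number of loops assigned to each of the 39 genes (x axis, loops per gene) in estrus and diestrus, grouped by role down the page. Each mark is 1 library, so there is no error bar. Bmp4 has 7 loops in both stages, Inhbb has 6 in estrus and 3 in diestrus, and Smad4 has 4 in estrus and 7 in diestrus.

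Most member loops were found in both stages, where found means that the other list has a loop with both anchors within 10 kb. In estrus 106 of the 123 loops (86.2%, 78.8% to 91.7%) were found in diestrus, against 80.8% of all estrus loops and 82.1% of those at any protein-coding gene. In diestrus 100 of the 123 (81.3%, 73.3% to 87.8%) were found in estrus, against 74.4% of all diestrus loops and 78.0% of those at any protein-coding gene. The median strength of member loops was 3.20 (2.98 to 3.42) in estrus and 3.14 (2.81 to 3.38) in diestrus, intervals that overlap, against 3.43 in estrus and 3.28 in diestrus over all loops. Member loops without a counterpart were weaker, with medians of 2.51 in estrus and 2.38 in diestrus. A loop that is missing from a list is one that the caller did not list, which does not mean that the contact was absent. The median length was 250 kb in estrus and 240 kb in diestrus.

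The 3 TGF-beta ligand genes had 12 loops in estrus and 15 in diestrus, and each had fewer in estrus. Tgfb2 carried most of them, with 8 in estrus and 9 in diestrus, all from the promoter end of the gene, in the anchor chr1:186700001-186710000 or the next bin, chr1:186710001-186720000, which is shared with Rrp15. Its loop of 530 kb had the most contacts in either stage, 280 (248 to 315) at strength 7.28 in estrus and 312 (278 to 349) at 7.44 in diestrus. The estrus loop of 320 kb, with 158 contacts at strength 4.59, was the strongest member loop of estrus with no counterpart in diestrus. The diestrus loops of 360 kb and 100 kb, at strengths of 2.80 and 2.38, were not found in estrus. Among paired loops of Tgfb2 the 440 kb loop differed most, with 111 contacts at strength 2.19 in estrus and 186 contacts at 3.21 in diestrus. Its strength ratio, estrus over diestrus and centred on the median of all pairs in the genome, was 0.676 (0.529 to 0.859). The loop of 590 kb reached Lyplal1 in both stages.

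Tgfb3 had 4 loops in estrus and 5 in diestrus, all from an anchor that it shares with Ift43. All 4 of the estrus loops were found in diestrus. The loop with the most contacts in estrus was that of 120 kb, with 407 contacts (368 to 449) at strength 4.26 in estrus and 432 contacts (392 to 475) at 4.18 in diestrus. The strongest, of 230 kb, held 360 contacts (324 to 399) at strength 5.56 in estrus and 553 contacts (508 to 601) at 7.58 in diestrus, a centred ratio of 0.727 (0.635 to 0.831). The 330 kb loop reached Flvcr2, with 81 contacts in estrus and 129 in diestrus. Tgfb1 had no loop in estrus and 1 in diestrus, of 120 kb with 170 contacts at strength 2.07, from an anchor with B9d2 and Tmem91 to Cyp2s1. Across these ligands 9 of 11 paired loops were weaker in estrus, with a median centred log2 ratio of -0.11 (-0.46 to 0.01).

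The 7 BMP and GDF ligand genes had 23 loops in estrus and 23 in diestrus, and 5 of the 7 had equal numbers. Bmp4, a BMP ligand gene that acts in many developing organs, had 7 loops in each stage, all from the anchor chr14:46380001-46390000. This bin holds the downstream end of the gene and ends just short of its start. All 7 had a counterpart, and the anchors lay to both sides, 5 towards lower and 2 towards higher coordinates. The strongest, of 390 kb, held 231 contacts (202 to 263) at strength 3.97 in estrus and 378 contacts (341 to 418) at 5.04 in diestrus. The loop of 180 kb held 158 contacts (134 to 185) in estrus and 268 (237 to 302) in diestrus, at strengths of 2.30 and 3.14. The loop of 320 kb towards higher coordinates held 123 contacts (102 to 147) in estrus and 203 (176 to 233) in diestrus, at strengths of 2.24 and 3.23. The remaining loop with an interval below 1 spanned 320 kb in estrus and 310 kb in diestrus, with 105 contacts and 152 contacts. These 4 loops had centred strength ratios of 0.781 (0.660 to 0.922), 0.724 (0.591 to 0.885), 0.684 (0.542 to 0.860) and 0.755 (0.583 to 0.974), in the order given.

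The other loops of Bmp4 differed less. Those of 510 kb and 240 kb had centred log2 ratios of -0.09 and -0.15, and the one that was higher in estrus, of 140 kb in estrus and 160 kb in diestrus, had 0.15. Thus 6 of 7 Bmp4 loops were weaker in estrus, with a median centred log2 ratio of -0.36 and a range from -0.55 to 0.15. Among 1294 protein-coding genes with at least 4 paired loops, this median was the second lowest, after Kmo at -0.52, and the middle 80% of these genes ran from -0.15 to 0.16. Summed over its 7 pairs Bmp4 had 928 contacts in estrus and 1425 in diestrus, a ratio of 0.651 (0.599 to 0.708), against 0.957 over all pairs in the genome. The expected contacts at these loops had a ratio of 0.795, so that the local background was also lower in estrus. The other 10 paired loops with an anchor within 500 kb of Bmp4 had a median of 0.03, and 4 of the 10 were weaker in estrus. Since all 7 loops share 1 anchor they are not independent measurements of the gene.

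**Figure D2:**
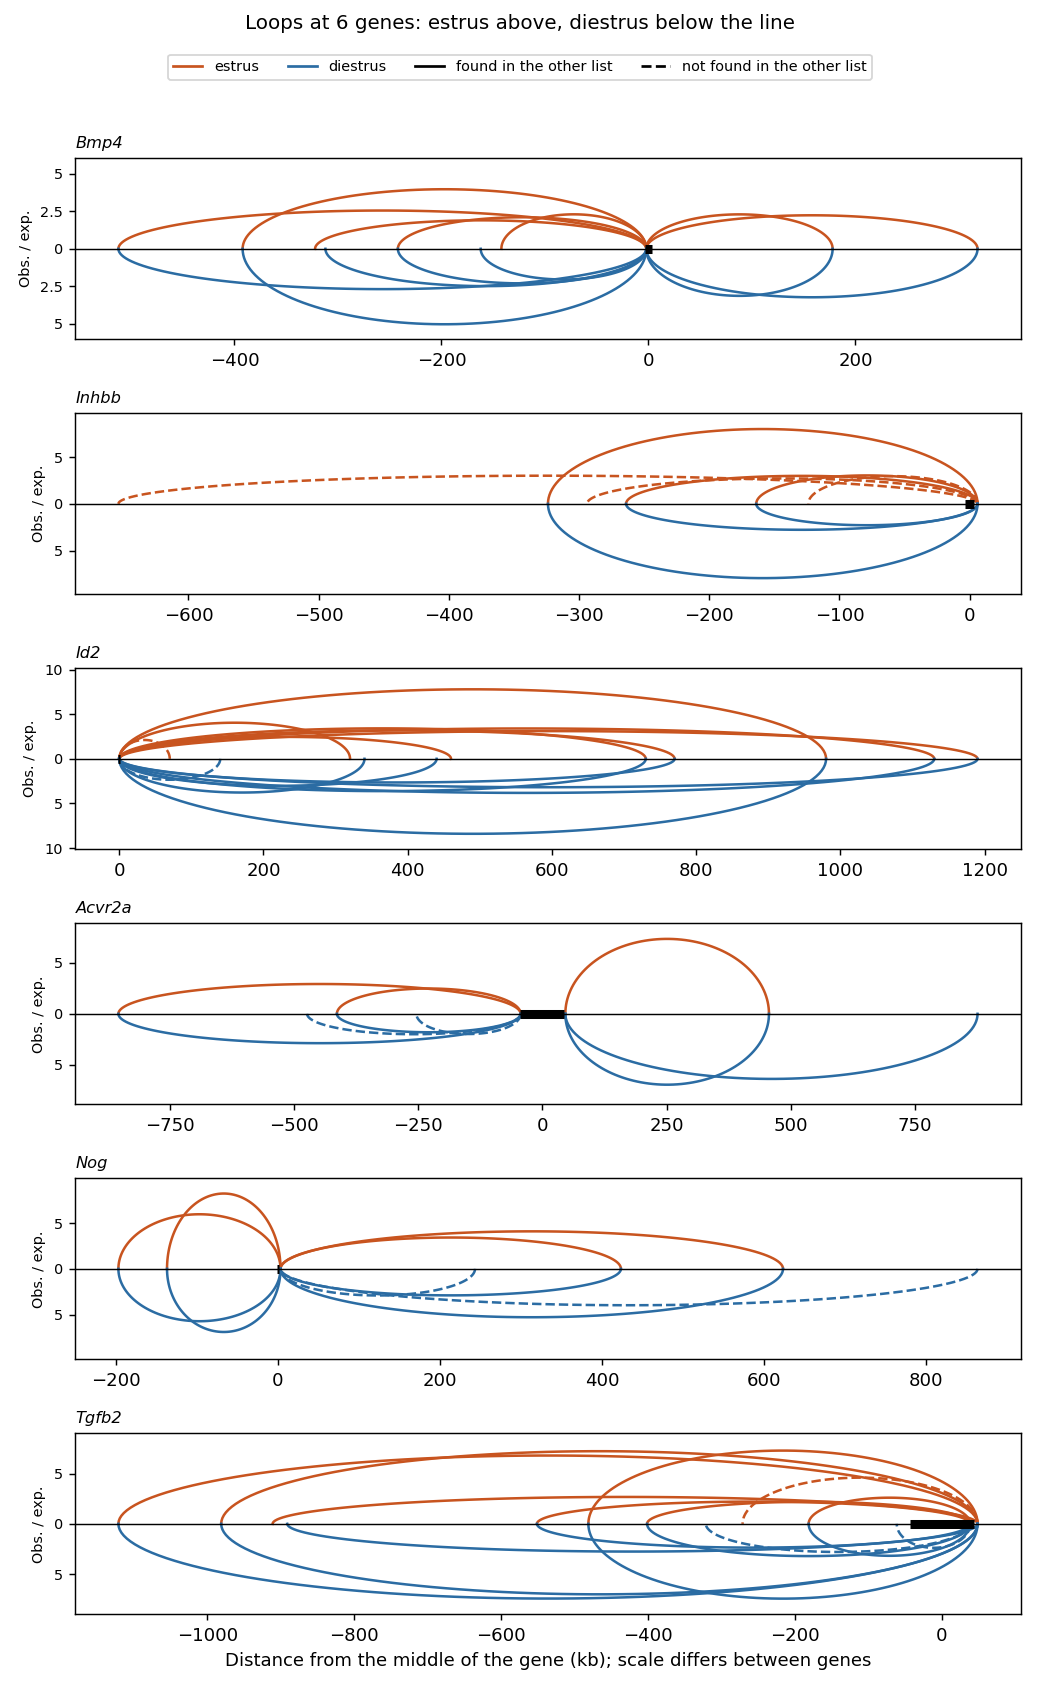
Loops of Bmp4, Inhbb, Id2, Acvr2a, Nog and Tgfb2, drawn as arcs against the distance from the middle of the gene (x axis, kb). The height of an arc is the strength (y axis, observed over expected contacts), with estrus above and diestrus below the line, the gene as a black bar and dashed arcs for loops not found in the other list. At Bmp4 all arcs are solid, and the 390 kb arc reaches 3.97 in estrus and 5.04 in diestrus.

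Bmp6 and Gdf6 had 4 loops in each stage. At Bmp6 the loop with the most contacts, of 90 kb, held 253 contacts at strength 3.25 in estrus and 277 at 3.53 in diestrus. Its strongest loop, of 250 kb, reached Bloc1s5 and held 174 contacts at strength 4.96 in estrus and 155 at 4.11 in diestrus, the largest centred log2 ratio of this gene at 0.25. The loop of 160 kb joined the ends of the gene and reached Txndc5 in both. A loop of Bmp6 to Riok1 (280 kb, strength 2.62) was listed only in estrus, and a loop of 50 kb (1.89) only in diestrus. All 4 loops of Gdf6 were found in both stages. Its 580 kb loop was the strongest in estrus, with 88 contacts at 4.37 in estrus and 76 at 3.38 in diestrus, at a centred log2 ratio of 0.36. Its 310 kb loop was the strongest in diestrus, with 132 contacts at 3.45 in estrus and 163 at 3.85 in diestrus.

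The remaining BMP and GDF genes had 1 to 3 loops. Bmp7 had 2 in each stage, of 100 kb and 70 kb. The 70 kb loop joined the ends of the gene, and the 100 kb loop held 184 contacts in estrus and 284 in diestrus at a centred ratio of 0.808 (0.668 to 0.976). Gdf10 had 2 loops in estrus and 3 in diestrus, and its 240 kb loop, from an anchor with Gdf2, was among the strongest at this set, at 7.51 in estrus and 7.06 in diestrus. Gdf11, from an anchor with Cd63, had 3 in each stage, and its 50 kb loop held 565 contacts (519 to 614) in estrus and 540 (495 to 588) in diestrus, the most of any member in estrus. Bmp5 had 1 loop in estrus, of 140 kb at strength 2.21, and none in diestrus. Over this group 13 of 20 pairs were weaker in estrus, with a median centred log2 ratio of -0.11 (-0.31 to 0.07).

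In the activin and Nodal branch 7 loops were assigned in estrus and 3 in diestrus, at Inhbb and Inhba only. Inhbb encodes the beta B subunit of activin and inhibin. It had 6 loops in estrus and 3 in diestrus, all from the anchor chr1:119420001-119430000, which contains the promoter shown above. The 3 diestrus loops were all found in estrus. The strongest spanned 330 kb, with 363 contacts (327 to 402) at strength 7.99 in estrus and 370 (333 to 410) at 7.94 in diestrus, intervals that overlap. The 170 kb loop held 151 contacts in estrus and 110 in diestrus, at a centred ratio of 1.31 (1.02 to 1.69). The 3 loops listed only in estrus, of 660 kb, 300 kb and 130 kb, held 47, 248 and 190 contacts at strengths of 3.0, 2.71 and 2.96. None of these reached 4 times the expected contacts.

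Inhba, the gene of the activin beta A subunit, shows how much the rule decides. Its single assigned loop was in estrus, of 1430 kb, with 165 contacts (141 to 192) at strength 7.26. The matching diestrus loop, of 1420 kb with 180 contacts (155 to 208) at strength 4.30, started in the next bin and fell outside the 5 kb limit. The pair had a centred ratio of 1.67 (1.34 to 2.07). Its observed contacts were thus fewer in estrus, while the expected contacts were 22.7 in estrus and 41.8 in diestrus. RefSeq places a start of Inhba at 16011851 on chromosome 13, inside that next bin, chr13:16010001-16020000. From this bin 5 loops left in estrus and 8 in diestrus, of which 4 in estrus and 5 in diestrus had a counterpart. The strongest of these, of 750 kb, held 298 contacts (265 to 334) at 7.48 in estrus and 324 (290 to 361) at 6.58 in diestrus. With a margin of 10 kb Inhba had 6 loops in estrus and 8 in diestrus, the opposite direction. Nodal and Lefty1 had no loop under the 5 kb rule.

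At the edge of the rule, the farthest gene end that still counted was that of Tgfbr1, 4926 bases from the anchor of loops of 280 kb and 160 kb in estrus and of 280 kb and 150 kb in diestrus. The nearest that did not count was an end of Bmp5, 5365 bases from an anchor with 4 loops in each stage. In estrus the 140 kb loop among them was assigned to Bmp5 through the other end of the gene, and the remaining 7 were not assigned. The 360 kb loop held 567 contacts (521 to 616) at strength 10.2 in estrus and 583 (537 to 632) at 10.1 in diestrus. With a margin of 10 kb Bmp5 had 5 loops in each stage.

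All 9 receptor genes had loops, 32 in estrus and 32 in diestrus in sum, and 4 had more in estrus and 3 fewer. Tgfbr1, the type I receptor for TGF-beta, had 5 loops in estrus and 3 in diestrus. Of the 5, 4 had a counterpart, so the difference came from a 300 kb loop to Anks6 (60 contacts at strength 2.50, estrus only) and from a 970 kb loop whose diestrus partner of 950 kb lay in a bin not assigned to the gene. That pair held 74 contacts in estrus and 68 in diestrus, with the largest centred log2 ratio of the gene, 0.41. The loop with the most contacts, of 100 kb, held 282 contacts (250 to 317) in estrus and 235 (206 to 267) in diestrus, and the strongest, of 280 kb to Galnt12, had 109 contacts at 3.99 in estrus and 149 at 4.85 in diestrus. The loop of 160 kb in estrus and 150 kb in diestrus had a centred ratio of 1.30 (1.05 to 1.61). Over its 4 pairs Tgfbr1 had a median centred log2 ratio of 0.24, while 8 other pairs within 500 kb had -0.15.

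Bmpr1b, a BMP type I receptor gene, had 5 loops in estrus and 3 in diestrus. None lay at the start sites listed for it, which are all inside the gene. All but 1 diestrus loop ended in the anchor chr3:141830001-141840000, at the downstream end of the gene, which also holds Unc5c. Its loop of 2540 kb was the strongest member loop in both stages, with 104 contacts (85.0 to 126) in each, at strength 11.6 in estrus and 12.7 in diestrus. The loop of 2330 kb held 41 contacts (29.4 to 55.6) in estrus and 33 (22.7 to 46.3) in diestrus. Of the other 3 estrus loops, those of 1650 kb and 370 kb had a counterpart in a neighbouring bin, and that of 1880 kb (38 contacts at 3.91) had none. In diestrus a loop of 100 kb (204 contacts at 2.05), with the upstream end of the gene in its anchor, was not found in estrus. Over its 4 pairs the median centred log2 ratio was 0.27, highest at 1650 kb with 0.42, and each of the 4 counting intervals included equality. Summed over these pairs, observed contacts were 242 in estrus and 243 in diestrus, while the expected contacts had a ratio of 0.797. With a margin of 10 kb the gene had 5 loops in each stage.

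Acvr2a, the gene of an activin type II receptor, had 3 loops in estrus and 6 in diestrus. Its strongest loop in estrus by the rule, of 410 kb from an anchor with Orc4 to Mbd5, held 321 contacts (287 to 358) at 7.34 in estrus and 312 (278 to 349) at 6.94 in diestrus. The diestrus loop of 830 kb held 84 contacts (67.0 to 104) at strength 6.37. Its estrus partner of 820 kb, with 95 contacts (76.9 to 116) at 10.2, lay 6737 bases from the gene and was not assigned, and the centred ratio was 1.58 (1.16 to 2.14). The expected contacts of this pair were 9.35 in estrus and 13.2 in diestrus. The 370 kb loop held 138 contacts in estrus and 104 in diestrus, at a centred ratio of 1.36 (1.04 to 1.77). Diestrus loops of 430 kb and 210 kb, at strengths of 2.00 and 1.98, were not found in estrus. All 4 pairs of Acvr2a were stronger in estrus, with a median centred log2 ratio of 0.25, although the gene had fewer loops there. When the diestrus list was cut to as many loops as the estrus list, keeping the strongest, Acvr2a had 3 loops in each stage.

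Bmpr2, the BMP type II receptor gene, had 2 loops in estrus, both found in diestrus, and 4 in diestrus. The loop with the most contacts, of 80 kb, held 410 contacts (371 to 452) at 3.20 in estrus and 419 (380 to 461) at 3.42 in diestrus. That of 110 kb, the strongest in estrus, reached Fam117b and Ica1l, with 233 contacts at 3.66 in estrus and 212 at 3.26 in diestrus. The diestrus loops not found in estrus reached Fzd7 (280 kb, 36 contacts at 2.33) and Carf and Wdr12 (210 kb, 128 contacts at 2.63). With no margin Bmpr2 had 0 loops in estrus and 1 in diestrus, and with any part of the gene in an anchor 1 in estrus and 2 in diestrus. Acvr1, another BMP type I receptor gene, had 4 loops in estrus and 3 in diestrus, and all had a counterpart. Its loop with the most contacts, of 90 kb in estrus and 80 kb in diestrus, held 314 contacts in estrus and 294 in diestrus at a centred ratio of 1.22 (1.04 to 1.44). The strongest, of 260 kb to Cytip, had strength 4.23 in estrus and 3.98 in diestrus, and that of 420 kb reached Galnt5.

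Tgfbr3, which encodes the co-receptor betaglycan, had 4 loops in each stage. Its 290 kb loop had the most contacts and was the strongest, with 466 contacts (425 to 510) at 4.10 in estrus and 501 (458 to 547) at 3.79 in diestrus. Its pair of 80 kb in estrus and 70 kb in diestrus differed most, at a centred log2 ratio of -0.30. The estrus loop of this pair was not assigned to the gene. Another estrus loop of 80 kb, at strength 2.04, was assigned and had no counterpart. Acvr2b, an activin type II receptor gene, had 4 loops in estrus and 3 in diestrus. Its 80 kb loop to Acaa1a and Xylb had the most contacts, 277 at strength 4.83 in estrus and 261 at 4.43 in diestrus, and its 280 kb loop to Acaa1b and Dlec1 had strength 4.56 in estrus and 4.53 in diestrus. Its 50 kb loop differed most, at -0.17. A 190 kb loop of Acvr2b to Oxsr1 (strength 2.44) was listed only in estrus. Tgfbr2, the TGF-beta type II receptor gene, had 2 loops in estrus and 3 in diestrus. Its loop of 70 kb in estrus and 80 kb in diestrus was weaker in estrus, with 311 contacts against 374 and a centred ratio of 0.730 (0.626 to 0.850). Bmpr1a had 3 loops in each stage at the same positions, of 320 kb, 130 kb and 50 kb, with centred log2 ratios between 0.02 and 0.23. Over all receptors 11 of 30 pairs were weaker in estrus, with a median of 0.09 (-0.07 to 0.17).

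**Figure D3:**
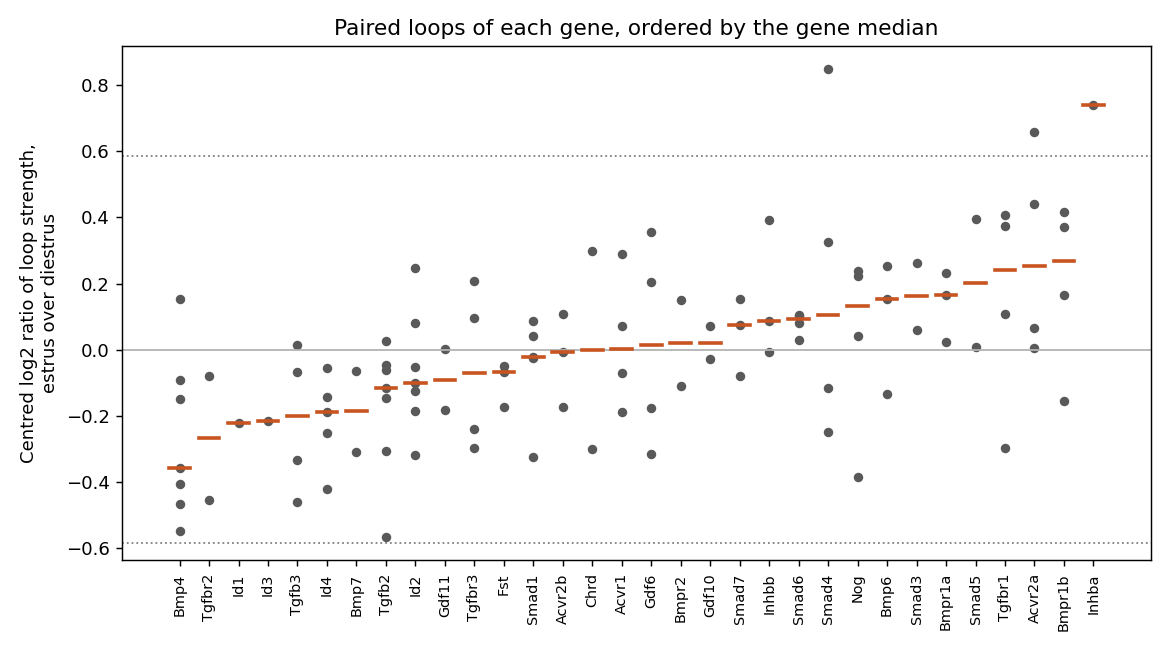
Centred log2 ratio of loop strength, estrus over diestrus (y axis), for the paired loops of each gene, with genes ordered by their median (x axis). A point is 1 paired loop, a bar is the median of the gene, the line at 0 is the median of all pairs in the genome, and dotted lines mark 1.5-fold. The points of Bmp4 lie between -0.55 and 0.15, those of Acvr2a at or above 0.01, and that of Smad4 at 0.85 is the farthest from 0.

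The antagonist genes had 10 loops in estrus and 11 in diestrus. Nog, which encodes the BMP antagonist noggin, had 4 in estrus and 6 in diestrus, all from the anchor chr11:89300001-89310000. The 4 estrus loops were all found in diestrus. Its 140 kb loop had the most contacts and was the strongest, with 489 (447 to 534) at strength 8.22 in estrus and 421 (382 to 463) at 6.90 in diestrus, a centred ratio of 1.18 (1.03 to 1.35). The 620 kb loop went the other way, with 54 contacts (40.6 to 70.5) at 4.09 in estrus and 92 (74.2 to 113) at 5.29 in diestrus, and a centred log2 ratio of -0.39. The 240 kb and 860 kb loops of diestrus, at strengths of 2.91 and 3.98, were not found in estrus.

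Fst, which encodes the activin-binding protein follistatin, had 3 loops in estrus and 4 in diestrus. All 3 estrus loops were found in diestrus, and the strongest, of 580 kb, held 216 contacts (188 to 247) at 7.32 in estrus and 280 (248 to 315) at 7.59 in diestrus. The 3 pairs of Fst were slightly weaker in estrus, at centred log2 ratios from -0.17 to -0.05. The diestrus loop of 340 kb, at 3.27, was not found in estrus. Chrd, the chordin gene, shares its anchor with Clcn2, Polr2h and Thpo and had 2 loops in estrus and 1 in diestrus, of 170 kb in both and, in estrus, of 470 kb to Ephb3. The 470 kb loop held 57 contacts, and its diestrus counterpart of 480 kb, with 59 contacts, lay in a bin not assigned to the gene. Fstl1 had 1 loop in estrus, of 100 kb at strength 2.33, and none in diestrus. Of 9 pairs in this group 5 were weaker in estrus, with a median of -0.05 (-0.30 to 0.24).

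The Smad genes had 22 loops in estrus and 24 in diestrus. Smad4, the common partner of the receptor Smads, had 4 in estrus and 7 in diestrus, and the 4 of estrus were all found in diestrus. The loop with the most contacts, of 440 kb, held 255 contacts (225 to 288) at 8.38 in estrus and 306 (273 to 342) at 9.85 in diestrus, a centred ratio of 0.842 (0.710 to 0.997). The strongest in estrus, of 1620 kb, held 53 contacts (39.7 to 69.3) at 10.3 in estrus and 44 (32.0 to 59.1) at 8.16 in diestrus. The loop of 2240 kb had the largest ratio of all member pairs, with 42 contacts (30.3 to 56.8) at 9.63 in estrus and 36 (25.2 to 49.8) at 5.29 in diestrus, a ratio of 1.80 (1.13 to 2.89). Its observed contacts differed little, and the ratio came mostly from a lower expected number in estrus. Of the 3 diestrus loops with no counterpart, that of 2970 kb had 33 contacts (22.7 to 46.3) at 5.04, and that of 50 kb reached Elac1 and Me2. All 4 estrus loops and 6 of the 7 diestrus loops counted through a gene end 4790 bases outside the anchor. With no margin Smad4 had 0 loops in estrus and 1 in diestrus, and with any part of the gene in an anchor it had 2 in estrus and 3 in diestrus, so a difference of 2 or more was not kept.

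Smad1 and Smad6 had almost the same loops in both stages. The 5 loops of Smad1, a BMP receptor Smad gene, lay at the same positions in both, with 411 contacts (372 to 453) in estrus and 445 (405 to 488) in diestrus at the 50 kb loop, which joins the ends of the gene. Its 250 kb loop was the strongest, at 3.42 in estrus and 3.19 in diestrus, and its 170 kb loop was weaker in estrus, with 215 contacts against 300 and a centred ratio of 0.799 (0.668 to 0.955). Smad6, an inhibitory Smad gene, had 5 loops in estrus and 4 in diestrus. The 4 shared loops of Smad6 had centred log2 ratios between 0.03 and 0.11, the narrowest range among members with 4 or more pairs. Its 70 kb loop joined the ends of the gene, with 373 contacts in estrus and 389 in diestrus. Its 60 kb loop had the most contacts, with 561 contacts (516 to 609) in estrus and 585 (539 to 634) in diestrus, and its 130 kb loop was the strongest, at 4.80 in estrus and 4.42 in diestrus. The estrus loop of 890 kb to Skor1 had 27 contacts (17.8 to 39.3) and no counterpart.

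Smad7, the other inhibitory Smad gene, had 3 loops in estrus, all with a counterpart, and 4 in diestrus. Its loop of 120 kb in estrus and 130 kb in diestrus held 225 and 232 contacts, its 230 kb loop was the strongest at 3.52 in estrus and 3.68 in diestrus, and its 180 kb loop differed most, at a centred log2 ratio of 0.15. A diestrus loop of 70 kb reached Dym at 1.96. Smad3 had 3 loops in each stage at strengths from 2.03 to 3.40 in estrus and from 2.03 to 2.81 in diestrus. Smad5 had 2 in estrus and 1 in diestrus, and its 80 kb loop held 216 contacts in estrus and 165 in diestrus at a centred ratio of 1.32 (1.07 to 1.62). Its 180 kb loop held 156 contacts in estrus, and the counterpart of 200 kb, with 160 contacts in diestrus, was not assigned to the gene. Over the group 6 of 20 pairs were weaker in estrus, with a median of 0.07 (-0.02 to 0.11).

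The Id genes had 17 loops in estrus and 15 in diestrus, and 12 of their 14 pairs were weaker in estrus, with a median of -0.16 (-0.25 to -0.05). Of these pairs 7 share the Id2 anchor and 5 the Id4 anchor, so they are not independent measurements. The interval treats them as if they were, and it rests on 1 library per stage. Id2 had 8 loops in each stage, all from the anchor chr12:25090001-25100000 that holds its promoter, reaching up to 1190 kb in the same direction. The 980 kb loop had the most contacts and was the strongest, with 311 (277 to 348) at 7.79 in estrus and 360 (324 to 399) at 8.40 in diestrus. Of its 7 pairs 5 were weaker in estrus, from -0.32 at the loop of 460 kb in estrus and 440 kb in diestrus to 0.25 at 770 kb. Short loops of 70 kb in estrus (295 contacts at 2.11) and 140 kb in diestrus (176 at 2.35) had no counterpart.

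Id4 had 6 loops in each stage, and the promoter shown above lies in the anchor chr13:48260001-48270000 of 5 of them in estrus and of all 6 in diestrus. All 5 of its pairs were weaker in estrus, at centred log2 ratios from -0.42 to -0.05 and a median of -0.19, while 18 other pairs within 500 kb had a median of 0.11. The loop with the most contacts, of 600 kb, held 145 (122 to 171) at 3.13 in estrus and 173 (148 to 201) at 3.42 in diestrus. The loop of 910 kb in estrus and 920 kb in diestrus held 95 contacts (76.9 to 116) at 2.64 in estrus and 122 (101 to 146) at 3.50 in diestrus, a ratio of 0.747 (0.565 to 0.985). An estrus loop of 970 kb, with 79 contacts at 4.03, had no counterpart, nor did a diestrus loop of 200 kb at 2.32. Id3 had a loop of 70 kb with 518 contacts (474 to 565) in estrus and 643 (594 to 695) in diestrus at a centred ratio of 0.861 (0.766 to 0.968), and in estrus a loop to Pnrc2 and Srsf10. Id1 had 1 loop in estrus, of 50 kb to Mcts2 with 461 contacts from an anchor with Cox4i2, and none assigned in diestrus. Its diestrus counterpart of 70 kb, with 538 contacts at strength 4.75, lay in a bin not assigned to the gene. The centred ratio of that pair was 0.858 (0.756 to 0.973).

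Over all members 108 loops could be paired between the stages, 84 at the same position and 24 shifted by 1 or more bins. Of these, 57 were weaker in estrus and 51 stronger, and 50% of all pairs in the genome are weaker by construction. The median centred log2 ratio was -0.02 (-0.07 to 0.04), with an SD over loops of 0.26, the same as over all 19399 pairs. Past 1.5-fold, 3 pairs were stronger in estrus (2.78%, against 1.64% of all pairs), namely those of Smad4, Inhba and Acvr2a given above, and 0 were weaker (0%, against 1.56%). All 3 had fewer expected contacts in estrus, and the pair of Inhba also had fewer observed contacts there. The counting interval lay above 1 at 9 pairs (8.33%, against 6.36%) and below 1 at 16 (14.8%, against 6.98%), of which 4 were at Bmp4. Member loops held a median of 165 contacts in estrus and 176 in diestrus, against 125 over all loops in each stage. Counting intervals narrow with more contacts, so these shares are not like for like. The roles differed in their medians, from 0.24 over the 4 pairs of the activin branch and 0.09 over the receptors to -0.16 over the Id genes, but loops of a gene share an anchor and the groups are small.

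**Figure D4:**
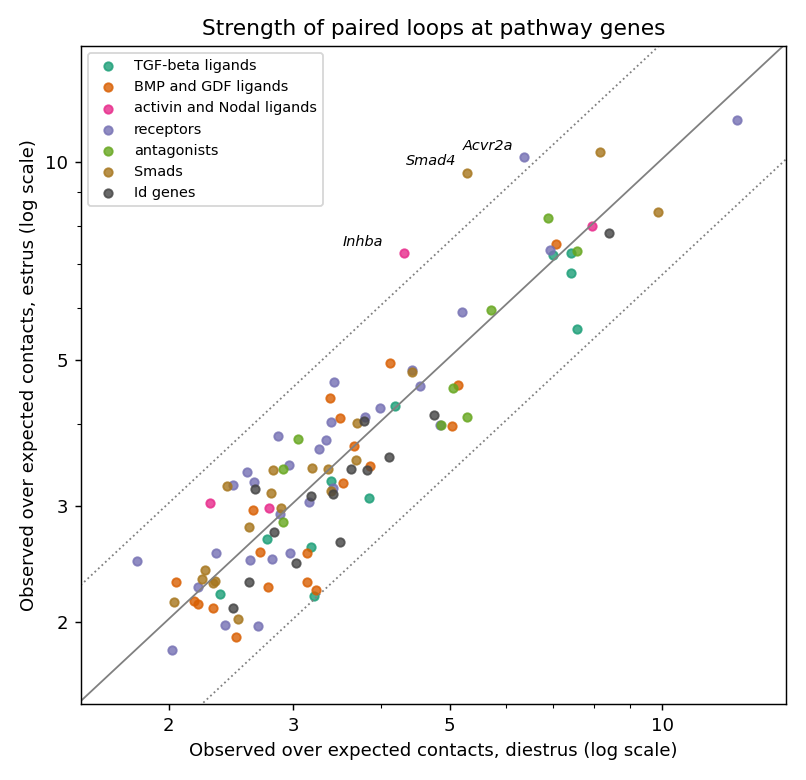
Strength of each of the 108 paired member loops in estrus (y axis) against its strength in diestrus (x axis), as observed over expected contacts on log axes. A point is 1 paired loop, coloured by role, the diagonal marks the median ratio of all pairs in the genome, and dotted lines mark 1.5-fold to either side. The 3 named pairs (Smad4, Inhba and Acvr2a) lie above the upper dotted line, and no pair lies below the lower.

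Of the member loops, 24 in estrus (19.5%) and 20 in diestrus (16.3%) had an end of a named protein-coding gene at the opposite anchor, and receptors held 12 of them in estrus and 11 in diestrus. Counted in the same way, per gene and loop, the share over all named protein-coding genes was 48.0% in estrus and 48.0% in diestrus. Counted once per loop, 29.3% of loops at named protein-coding genes in estrus and 29.1% in diestrus had such a gene at both anchors. These values are also above the members' shares, but they include loops that join the ends of a single gene. The members' shares leave those out unless another named gene lies at the opposite anchor. Where RefSeq gave the strand, the promoter end of the gene was at the anchor in 67 of 94 loops in estrus and 64 of 87 in diestrus. Promoter end here means a listed start site inside the anchor or within 5 kb of it. This share was not computed over all protein-coding genes. At short genes such as Bmp4, Inhbb, Id2 and Id3 both ends of the gene counted at the same anchor, so the promoter end was always included. Receptor genes, all of them 40566 bases or longer, had 10 loops at the promoter end and 18 at the other end in estrus, and 11 and 17 in diestrus. The 17 include the 100 kb loop of Bmpr1b, at the upstream end of the gene but away from its listed start sites. The part played by gene length was not tested. Another named gene stood at the same anchor in 29 loops in estrus (23.6%) and 24 in diestrus (19.5%), and these loops cannot be assigned to the member alone. The matching share over all protein-coding genes was not computed either.

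A wider list of 59 pathway genes, all of them matched, was counted by the same rule. Loops ended at 44 of the 59, with 105 loops in estrus and 122 in diestrus, a ratio of 0.861 against 0.954 over all protein-coding genes. Of the 44, 7 had more loops in estrus, 17 had fewer and 20 had equal numbers. Over all protein-coding genes with a loop, 25.6% had more in estrus, 31.5% fewer and 42.9% equal numbers. A difference of at least 3 loops was present at Ltbp2, the gene of a latent TGF-beta binding protein, with 3 in estrus and 6 in diestrus, and at Rgma, a BMP co-receptor gene, with 8 in estrus and 11 in diestrus. Both had fewer loops in estrus. How many of all protein-coding genes differ by as much was not computed.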

How the data were processed

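Hi-C libraries of estrus and diestrus uterus (1 each) were placed in their groups by the stage in the label and prepared with the Arima kit, per the labels' protocols. Juicer and mm10 are named in the submitters' processing notes. The aligner, versions and caller settings were not given in the sources used here. Per the file headers, the columns are those of HiCCUPS, Juicer's loop caller. Observed contacts and merged pixels are raw counts made by the authors. Expected contacts from 4 neighbourhoods are a signal that the authors' caller computed, per the file headers, and q-values are those of the deposited lists. The other deposited columns are anchor positions in bases. Only listed loops could be used, and full library depths were not used here.

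Loops were assigned with Python 3.11.15 to gene ends in a RefSeq table of GRCm38.p6, the assembly mm10 names, inside an anchor or within 5 kb. Loops were found when both anchors lay within 10 kb, and mutually nearest found loops were paired. Strength was observed over donut-expected contacts, and log2 ratios were centred on the median over all 19399 pairs. Partners are protein-coding genes at the opposite anchor, predicted genes aside. Contacts have exact Poisson intervals, and the rest are exact conditional for ratios (expected contacts taken as exact), Clopper-Pearson for shares and order statistics for medians. Read pairs carry no molecular identifiers, so they are not independent molecules. Summed over the lists, estrus held 4153485 contacts and diestrus 4533525. Members with at least 4 loops in either library are described by their loop with most contacts, their strongest loop, loops of a single library at 4 times the expected contacts, and the pairs that differed most, and other loops are examples chosen after their values were seen. Members and lists were chosen with earlier results of these data known. The steps were tested on simulated data.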

Additional observations from a re-analysis of the deposited data

How the results depend on the processing

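Results were recomputed with no margin, with a 10 kb margin, counting genes with any part in an anchor, with q-values of at most 0.01 and with the diestrus list cut to the strongest loops, as many as in estrus, and with other tolerances, expected values and centrings where they apply. With identical bins only, the share of member loops found in the other stage was 68.3% in estrus and 68.3% in diestrus. With the largest of the 4 expected values the median strength was 2.30 in estrus and 2.22 in diestrus. With this cut list the other pathway genes differed by -6 loops, estrus minus diestrus, against -17. The cause was not tested, although the cut list has fewer diestrus loops by construction. The 58 other recomputed totals, shares and medians stayed within 1.5 times of the reported count or inside its interval. Of the recomputed values of single genes, 298 kept the same difference in loops or stayed within the range of the gene's loops, and 59 did not. Of 24 members with a difference in loop number, 11 kept its direction in all 5 settings of assignment and list, and Inhba alone turned. Inhbb, Tgfbr1, Bmpr2, Nog and Smad4 kept theirs, but with no margin, or with any part of the gene counted, those of Bmpr2 and Smad4 were -1 loop, under the 2-loop limit. By RefSeq start sites, an assignment chosen after seeing the data, Inhbb had 6 loops in estrus and 3 in diestrus, Tgfbr1 had 2 and 1, Bmpr2 had 0 and 1, Acvr2a had 2 and 4, and Bmpr1b had none. The median centred log2 ratio of Bmp4 was -0.25 with strict q-values or the bottom-left expectation and -0.58 from observed contacts alone, and the other settings tried for it lay between these. No paired analysis was possible because each stage has 1 library. Loops with few contacts, such as those of 27 to 42 contacts at Smad6, Bmpr1b and Smad4, have wide counting intervals.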
